A study of Mus musculus with 30 samples.

Results

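Cohesin regions that lacked CTCF were examined in N1E115 cells, a mouse neuroblastoma line. They were chosen by RAD21 and CTCF peak calls alone: overlapping peaks of the 4 RAD21 lists were merged, and a merged region was kept where at least 2 lists had a peak and none of the 4 CTCF lists did. The rule kept 7178 of 88921 merged RAD21 regions. Of the 47670 merged regions with a peak in at least 2 lists, the other 40492 overlapped a CTCF peak and served as the comparison, called cohesin regions with CTCF below. Cells described as NOS1+ were grown for 3 days in 20% O2 or in 4% O2. Chromatin immunoprecipitation followed by sequencing used antibodies against CTCF, RAD21, acetylated lysine 9 of histone H3 (H3K9ac), RNA polymerase II (POLR2) and its serine 5 and serine 2 phosphorylated forms (POLR2S5, POLR2S2). Each antibody was used on 2 libraries per O2 level. The labels call 20% O2 normoxia and 4% O2 hypoxia, name the cell type neuroblast for part of the samples, and state no other treatment or clone. They do not say that the libraries of a level came from separate cultures, so the spread between them may be technical.

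Cohesin is a ring-shaped complex that holds DNA strands together, and RAD21 is the subunit that closes the ring. It is loaded onto chromatin, extrudes DNA loops and is halted at sites bound by CTCF, a zinc-finger protein that marks domain boundaries, which is why most cohesin peaks in mammalian cells lie on CTCF sites. Cohesin peaks without CTCF have been described mainly at enhancers and promoters, beside cell type transcription factors, Mediator and the cohesin loader. H3K9ac marks active promoters and enhancers, serine 5 phosphorylation marks polymerase near its start, and serine 2 phosphorylation marks elongating polymerase.

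The sequences under the regions can be shown where they cover an annotated promoter. Among 32817 RefSeq promoter windows of GRCm38.p6 (250 bases before to 50 after a start), 730 windows of 666 genes overlapped a cohesin region without CTCF and no region with CTCF. Printed here, 5′ to 3′, are the 250 bases before the start of the first 6 genes whose promoter lay under one of the 20 strongest of the 84 such regions called in all 4 RAD21 lists. Capitals mark each GC box (GGGCGG, either strand; neighbouring matches may overlap), the site of Sp and Klf factors.
Ssbp2 (chr13:91460847-91461096, plus strand): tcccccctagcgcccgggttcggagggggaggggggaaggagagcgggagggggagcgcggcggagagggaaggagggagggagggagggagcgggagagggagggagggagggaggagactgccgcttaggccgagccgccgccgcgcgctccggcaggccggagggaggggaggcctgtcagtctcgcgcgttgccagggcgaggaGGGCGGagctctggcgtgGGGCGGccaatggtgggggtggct
Lncenc1 (chr13:97434720-97434969, plus strand): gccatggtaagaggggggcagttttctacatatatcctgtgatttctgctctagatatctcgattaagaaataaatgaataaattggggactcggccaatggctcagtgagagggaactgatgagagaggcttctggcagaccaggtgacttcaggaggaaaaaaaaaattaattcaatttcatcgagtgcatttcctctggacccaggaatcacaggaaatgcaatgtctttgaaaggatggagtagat
Plcb4 (chr2:135659297-135659546, plus strand): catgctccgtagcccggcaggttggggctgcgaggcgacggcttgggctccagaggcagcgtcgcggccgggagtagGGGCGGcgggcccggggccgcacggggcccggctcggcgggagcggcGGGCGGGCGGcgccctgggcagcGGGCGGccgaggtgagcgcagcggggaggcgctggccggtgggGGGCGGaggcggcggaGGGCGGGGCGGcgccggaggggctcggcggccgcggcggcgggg
Gtdc1 (chr2:44927237-44927486, minus strand): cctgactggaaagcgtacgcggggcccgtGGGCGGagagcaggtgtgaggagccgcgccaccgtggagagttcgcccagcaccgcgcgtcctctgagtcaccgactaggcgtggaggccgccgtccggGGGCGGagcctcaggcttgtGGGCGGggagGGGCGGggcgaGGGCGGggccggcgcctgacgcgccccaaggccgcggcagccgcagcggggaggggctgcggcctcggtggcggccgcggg
Gm34503 (chr15:51591811-51592060, minus strand): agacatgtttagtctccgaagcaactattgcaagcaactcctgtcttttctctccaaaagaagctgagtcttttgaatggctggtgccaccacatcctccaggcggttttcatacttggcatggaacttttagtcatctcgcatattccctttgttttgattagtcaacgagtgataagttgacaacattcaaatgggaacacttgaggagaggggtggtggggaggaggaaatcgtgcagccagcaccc
Foxo3 (chr10:42276696-42276945, minus strand): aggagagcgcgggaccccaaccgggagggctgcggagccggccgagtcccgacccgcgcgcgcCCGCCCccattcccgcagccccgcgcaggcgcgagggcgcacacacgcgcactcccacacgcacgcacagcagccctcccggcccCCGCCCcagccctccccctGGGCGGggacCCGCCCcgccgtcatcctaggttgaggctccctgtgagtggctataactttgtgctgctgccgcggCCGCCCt
The promoters of Ssbp2, Plcb4, Gtdc1 and Foxo3 held 2, 7, 5 and 5 GC boxes and between 24 and 42 CpG steps in 250 bases. Those of the long noncoding RNA gene Lncenc1 and of the predicted gene Gm34503 held no GC box and 3 and 5 CpG steps. CpG-rich and CpG-poor starts were thus both present among these 6 starts. The match to the CTCF core consensus, searched on both strands, was absent from all 6.

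For comparison, 2 promoters under cohesin regions with CTCF are shown with the CTCF core in capitals. They belong to the regions with the highest RAD21 ranks whose promoter window held a match, and were picked after the values were seen.
Gm38588 (chr7:98481015-98481264, plus strand): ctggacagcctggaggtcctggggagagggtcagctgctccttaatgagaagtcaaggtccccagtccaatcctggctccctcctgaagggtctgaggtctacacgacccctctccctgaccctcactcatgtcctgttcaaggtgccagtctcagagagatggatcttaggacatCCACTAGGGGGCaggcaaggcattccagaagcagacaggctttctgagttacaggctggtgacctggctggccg
Gm32898 (chr10:94623705-94623954, minus strand): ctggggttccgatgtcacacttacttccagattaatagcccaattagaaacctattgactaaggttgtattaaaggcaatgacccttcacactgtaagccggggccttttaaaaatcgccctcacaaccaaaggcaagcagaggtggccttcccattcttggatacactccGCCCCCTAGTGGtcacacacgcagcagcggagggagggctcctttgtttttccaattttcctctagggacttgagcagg
Both regions had CTCF in all 4 lists and mean RAD21 ranks of 98.5 and 98.1 on a scale of 0 to 100. A CTCF core match was found in 143 of 3626 promoter windows under cohesin with CTCF (3.94%), in 0 of 730 without CTCF (0%) and in 183 of all 32817 (0.558%). Since absence of CTCF was part of the rule, that contrast is a description. GC boxes were present in 66.0% of the windows without CTCF, 60.5% of those with CTCF, 62.0% of all windows acetylated in 4 H3K9ac lists and 35.6% of all windows. AP-1 sites (TGANTCA, either strand), bound by Fos and Jun dimers, were present in 7.67%, 5.02%, 4.69% and 7.81% of the same 4 sets, in that order. ETS sites (CCGGAAG, either strand) were present in 13.4%, 15.2%, 19.1% and 8.86%, and cyclic AMP response elements (TGACGTCA, either strand) in 4.11%, 2.43%, 3.42% and 1.79%. The promoters without CTCF resembled other acetylated promoters in CpG content, with 7.05 CpG steps per 100 against 6.99, and all windows averaged 4.15.

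The strength of RAD21 peaks described the regions but did not test them, since these peaks chose the members. The RAD21 lists held 39012 peaks at 4% O2 in sequencing round 1 and 71225 in round 2, and 26908 and 73328 at 20% O2. Of the 7178 regions, 3183 had a peak in the 4% list of round 1 and 6334 in that of round 2. At 20% O2 only 171 regions had a peak in the round 1 list and 6738 in that of round 2. The round 1 list at 20% O2 was the shortest of the 4 and held 2.38% of the regions without CTCF but 60.1% of those with CTCF. RAD21 was called in exactly 2 lists at 5192 regions (72.3%), in 3 at 1902 and in all 4 at 84 (1.17%). With CTCF, 52.4% of regions were called in all 4 lists. The most frequent pattern, at 3933 regions, was a peak in both round 2 lists and in neither round 1 list.

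Peak scores (the authors' −log10 q) were ranked within each list from 0 to 100. The regions without CTCF had a median rank of 17.0 at 4% O2 in round 1 and 34.8 in round 2, and of 8.02 and 34.7 at 20% O2. The corresponding medians with CTCF were 59.8, 73.2, 53.9 and 72.5. In every list cohesin without CTCF was thus called at weaker peaks. In bulk chromatin, cohesin in fewer cells and less cohesin per cell cannot be told apart. The regions were also narrower, with a median width of 342 bp (middle 50% from 252 to 484 bp) against 499 bp. The 20209 regions without CTCF in 1 RAD21 list, just outside the rule, had a median rank of 18.3 and a median width of 156 bp, and the 5192 in 2 lists, just inside it, had 27.8 and 298 bp. A further 2125 regions had CTCF in only 1 of the 4 CTCF lists, with a median rank of 33.8.

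**Figure D1:**
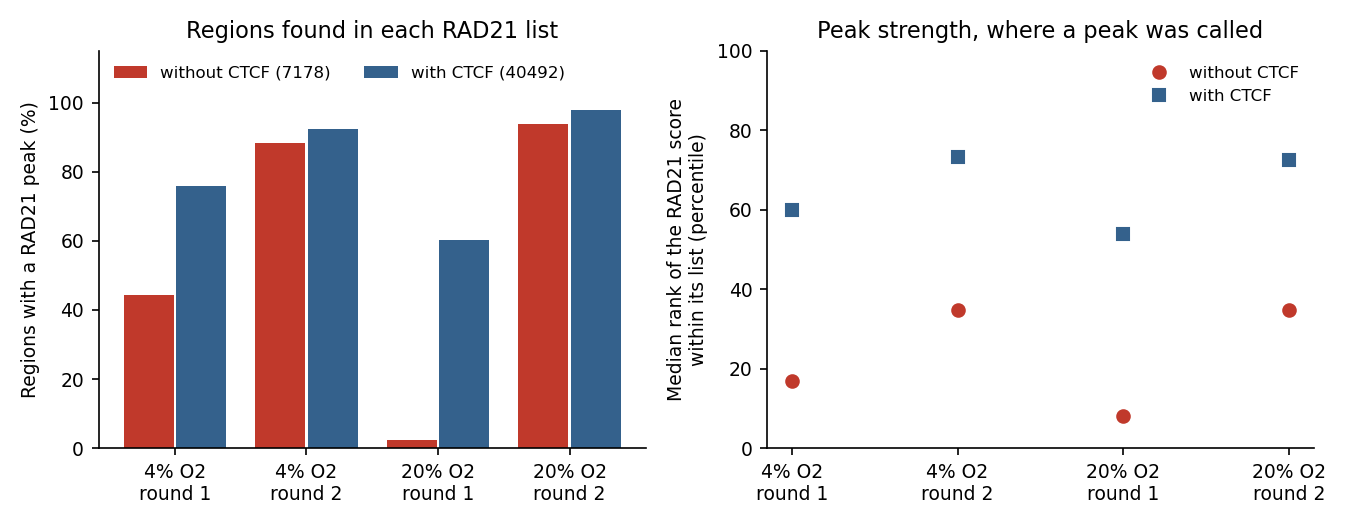
Share of cohesin regions with a RAD21 peak in each list (left, %) and median within-list percentile rank of the RAD21 score where a peak was called (right), for the 7178 regions without CTCF (red) and the 40492 with CTCF (blue). The 20% O2 round 1 list held 2.38% of the regions without CTCF, and all 4 red ranks lie below the blue ones.

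Most of the regions lay away from gene ends. A gene end here is the start or the end of a protein-coding gene, since the gene table gives no strand. Region centres lay within 1 kb of a gene end at 963 of 7178 regions, 13.4% (95% Wilson interval 12.6% to 14.2%, counting error only), against 13.0% with CTCF. A further 40.7% lay inside genes and 45.9% outside them, against 45.0% and 42.0% with CTCF. Exons and introns were not told apart. RefSeq start sites, which carry strand, lay within 1 kb of 1066 regions (14.9%, interval 14.0% to 15.7%) against 10.9% with CTCF. No start site on chromosome 18 was used, and none lay near the ends of Trps1 and Sox9 where regions were found. The 1066 regions were split almost evenly around the start, with 517 upstream and 549 downstream. The median gap to the nearest CTCF peak was 2223 bp, 34.6% of regions had one within 1 kb and 21.9% had none within 10 kb.

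H3K9ac was more frequent at the regions than at cohesin with CTCF in each library. H3K9ac peaks overlapped 75.4% and 79.9% of them in the 4% O2 libraries of rounds 1 and 2, and 76.5% and 78.8% in the 20% O2 libraries. With CTCF the shares were 35.8%, 43.0%, 37.2% and 40.5%. All 4 values without CTCF lay above all 4 with CTCF. The mean was 77.7% ± 2.07 (SD, n = 4 libraries) against 39.1% ± 3.24, a mean difference of 38.5 percentage points ± 1.20. The difference was positive in 4 of 4 libraries (exact two-sided sign-flip permutation test, p = 0.125, the smallest possible with 4 libraries; adjusted over 4 marks, 0.167). All 4 H3K9ac lists had a peak at 4789 regions (66.7%), and none had one at 926 (12.9%). With CTCF these shares were 30.3% and 51.5%. The share with H3K9ac in all 4 lists was graded across the rule's limits. It was 60.8% for regions in 2 RAD21 lists and without CTCF, 49.7% for the 348 regions with a CTCF peak within 100 bp, and, outside the rule, 50.8% with CTCF in 1 list and 28.9% with CTCF in 4 lists. Regions without CTCF in 1 RAD21 list had 39.95%.

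The contrast in acetylation was also present away from the ends of protein-coding genes, a class that still holds starts of noncoding genes. Away from gene ends the share was 75.4% ± 1.89 (SD, n = 4 libraries) against 33.9% ± 3.04 with CTCF. At gene ends it was 92.4% ± 3.33 against 74.0% ± 4.62, so the 2 classes differed less there, by 18.4 percentage points ± 1.48. Outside genes it was 74.5% ± 2.15 against 36.0% ± 2.67, and among regions narrower than 500 bp 73.8% ± 2.37 against 27.3% ± 2.99. For regions called in both round 2 RAD21 lists only, which hold CTCF and non-CTCF sites of the same list pattern, the shares were 72.8% ± 4.77 against 38.3% ± 6.39. At the 84 regions called in all 4 RAD21 lists the share was 97.9% ± 1.14, against 38.3% ± 2.95 at the 21214 such regions with CTCF. Each of these 6 differences was positive in 4 of 4 libraries, with the same smallest exact sign-flip p of 0.125.

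**Figure D2:**
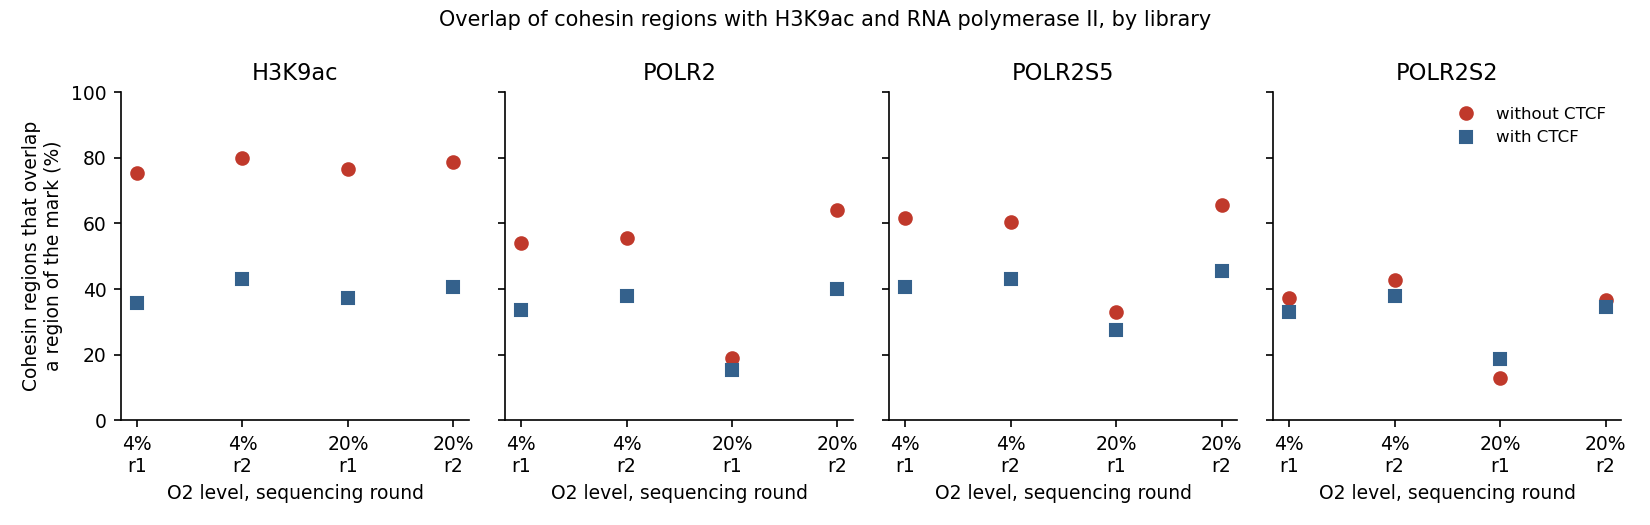
Share of cohesin regions (%) that overlapped an H3K9ac peak or an island of the polymerase forms, in each of the 4 libraries per antibody, without CTCF (red circles) and with CTCF (blue squares); r1 and r2 are sequencing rounds 1 and 2. H3K9ac shares lie between 75.4% and 79.9% without CTCF, while the 20% O2 round 1 library is lowest for each polymerase form.

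H3K9ac peaks flanked the RAD21 summit and did not cover it as often. In the round 2 libraries, for which summits were deposited, an H3K9ac peak covered 59.7% of the RAD21 summits of the regions at 4% O2. The share was 70.7% and 70.6% at 500 bp on either side and 19.7% and 19.8% at 3 kb. At 20% O2 the summit value was 55.8%, with 66.1% and 66.3% at 500 bp. Cohesin with CTCF showed a dip of similar depth on a lower level, from 31.7% at 500 bp to 20.0% at the summit at 4% O2. The median distance from a RAD21 summit without CTCF to the nearest H3K9ac summit was 356.5 bp at 4% and 353.5 bp at 20% O2. With CTCF it was 1310 and 2200 bp.

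**Figure D3:**
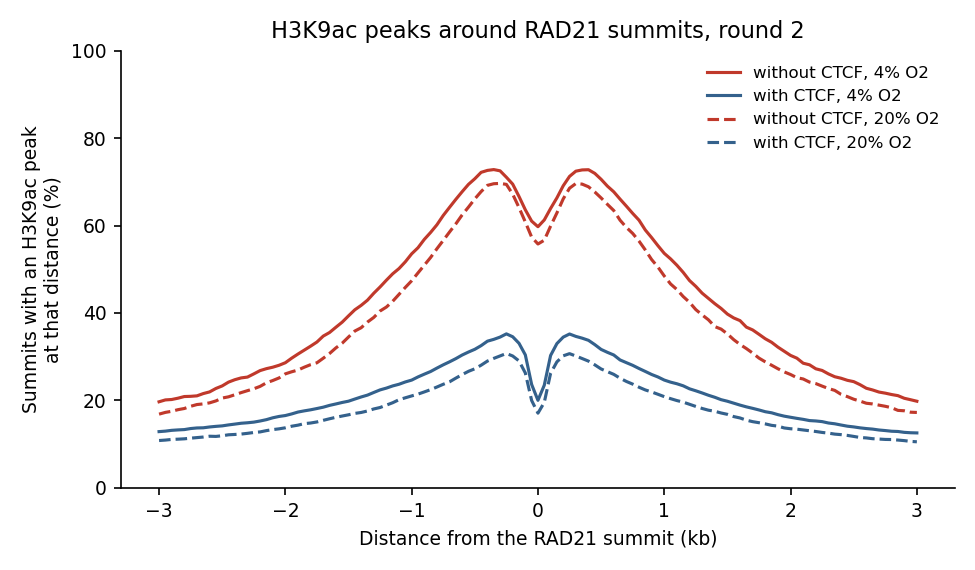
Share of RAD21 summits (%) with an H3K9ac peak at a given distance (kb), in the round 2 libraries at 4% O2 (solid) and 20% O2 (dashed), for regions without CTCF (red) and with CTCF (blue). Both red curves dip at the summit, to 59.7% and 55.8%, and lie above the blue curves over the 3 kb on each side.

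The acetylated regions that held such cohesin were strong and long. H3K9ac peaks that overlapped a region without CTCF had median within-list ranks of 73.0 and 77.0 at 4% O2 and 70.0 and 74.6 at 20% O2. Peaks with CTCF-bearing cohesin only had 63.9, 66.3, 60.3 and 64.9, and peaks with neither 42.3, 41.4, 42.7 and 41.7. Peaks that held both kinds of cohesin were counted in the first class, and the effect of this on the difference was not tested. The difference between the first 2 classes was 9.82 percentile points ± 0.677 (SD, n = 4 libraries, exact sign-flip p = 0.125). Their median lengths were 867, 1245, 879 and 1159 bp against 543, 712, 551 and 676 bp. Merged H3K9ac regions called in all 4 lists and away from gene ends were then divided into 10 equal groups by mean rank. The share with a cohesin region without CTCF was 6.38% in the weakest group and 31.1% in the strongest. The share with a CTCF-bearing one went from 23.9% to 52.8%. Region length moved along, from a median of 766 bp to 2513 bp, and its part in these shares was not tested.

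**Figure D4:**
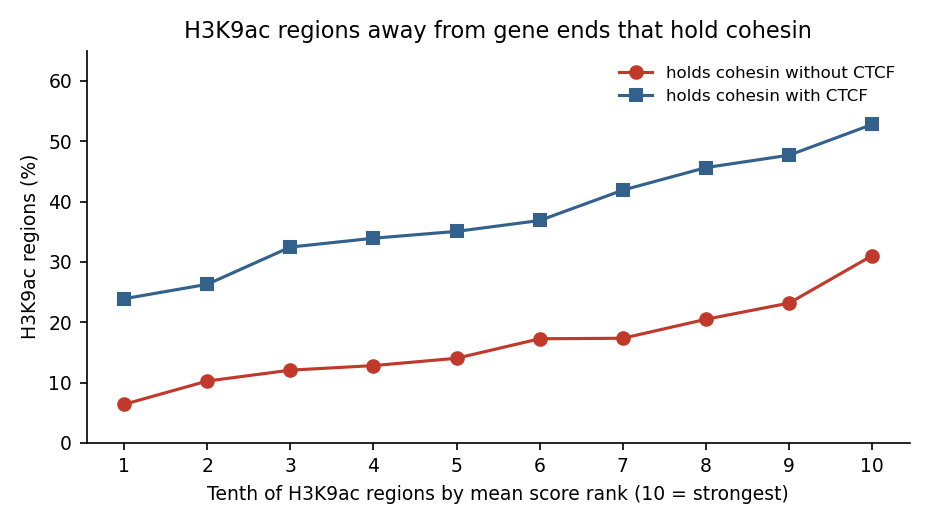
Share (%) of H3K9ac regions called in all 4 lists, away from gene ends, that hold a cohesin region without CTCF (red) or with CTCF (blue), in 10 equal groups by mean H3K9ac score rank. Red values run from 6.38% to 31.1% and blue ones from 23.9% to 52.8%.

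Counted over all cohesin regions, polymerase was also more frequent at those without CTCF, for the total and the serine 5 forms. POLR2 islands overlapped 54.1% and 55.5% of them in the 4% O2 libraries and 19.1% and 64.0% in the 20% O2 libraries, against 33.6%, 38%, 15.3% and 39.95% with CTCF. The round 1 library at 20% O2 stood apart in both classes. The mean difference was 16.5 percentage points ± 8.85 (SD, n = 4; positive in 4 of 4 libraries, exact sign-flip p = 0.125, adjusted 0.167). POLR2S5 islands overlapped 61.6%, 60.5%, 33.1% and 65.6%, against 40.5%, 43.1%, 27.5% and 45.5%, a mean difference of 16.0 points ± 7.16 (exact sign-flip p = 0.125, adjusted 0.167). For the elongating form the difference was smaller than its spread over libraries. POLR2S2 islands overlapped 37.1%, 42.6%, 12.9% and 36.7%, against 33.0%, 37.8%, 18.7% and 34.6%. That difference was 1.33 points ± 4.85 and was negative in the 20% O2 round 1 library (exact sign-flip p = 0.625). Among H3K9ac regions called in all 4 lists and away from gene ends, the excess of POLR2 and POLR2S5 was not seen. POLR2 in at least 3 libraries was found at 46.9% of those with cohesin without CTCF and 54.1% of those with CTCF-bearing cohesin only. For POLR2S5 these shares were 56.3% and 59.6%.

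Serine 5 without serine 2 was a recurrent combination. POLR2S5 in at least 3 libraries with no POLR2S2 island in any was found at 665 regions (9.26%), against 3.58% with CTCF. Outside genes it was found at 434 of 3292 regions (13.2%), against 4.94%. The reverse, POLR2S2 in at least 3 libraries with no POLR2S5, was found at 3 regions (0.0418%), against 187 with CTCF (0.462%). Outside genes POLR2S5 islands overlapped 47.1% ± 16.2 of the regions (SD, n = 4 libraries) against 28% ± 8.34 with CTCF, and POLR2S2 islands 18.8% ± 9.75 against 16.5% ± 5.39. H3K9ac in 4 lists without any polymerase island was found at 347 regions (4.83%).

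Some regions carried none of the 4 marks. No H3K9ac peak or polymerase island of any of the 16 libraries overlapped 654 regions (9.11%), against 32.6% with CTCF. These unmarked regions were narrow, with a median of 271.5 bp against 376 bp for regions with H3K9ac in 4 lists. Only 1.53% of them lay at gene ends, against 17.2%, and their median gap to a CTCF peak was 1024 bp against 2314 bp. RAD21 was called in at least 3 lists at 9.33% of them, against 34.0%.

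The 20 strongest of the 84 regions called in all 4 RAD21 lists were all acetylated in 4 H3K9ac lists. Their mean RAD21 ranks ran from 42.1 to 61.8. By position 8 lay at gene ends, 5 inside genes and 7 outside genes. POLR2S5 was called in at least 3 libraries at 12, POLR2S2 at 10, and no polymerase island overlapped 2. The strongest of the 20 lay 413 kb beyond the end of Myc (chr15:62402115-62404725), the gene of a growth-promoting transcription factor. Its RAD21 scores (−log10 q) were 51.3 in round 1 and 24.3 in round 2 at 4% O2, and 12 and 43.1 in the 20% O2 libraries. Its H3K9ac scores were 18.7, 18.9, 44.9 and 67.4, and no polymerase island reached it. Scores of different lists are not on one scale, so the 2 O2 levels were read by rank within each list. The RAD21 ranks, 66.8 and 74.9 at 4% O2 against 27.8 and 77.6, overlapped, and the H3K9ac ranks, 75.2 and 64.95 against 83.5 and 92.3, did not. Of all 39931 H3K9ac regions called in 4 lists, 27.4% ranked lower at 4% O2 in both rounds, so no O2 difference is read from this region.

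The 20 included regions at several transcription factor and signalling genes. A region inside Mycn, an oncogene often amplified in human neuroblastoma, had RAD21 scores of 15.8 and 9.12 at 4% O2 and 8.50 and 15.8 at 20% O2, with all 3 polymerase forms in all 4 libraries. Its ranks within the lists, 43.8 and 50.7 against 18.4 and 62.6, overlapped between O2 levels. At the end of Sox9, a neural crest and glial transcription factor, the scores were 14.3, 9.65, 14.8 and 13.1, and the ranks 41.2 and 53.5 against 34.3 and 58.5, again with overlap. The region 59.0 kb from Ntrk3, the neurotrophin-3 receptor gene, scored 23.8, 14.4, 4.57 and 32.9 and carried no polymerase island. Regions at Foxo3, a forkhead factor of the insulin pathway, and at Ski, a corepressor of TGF-beta signalling, had scores between 9.12 and 17.0. Ssbp2, a cofactor of LIM-domain transcription complexes, had 2 of the 20, at its start and 89.1 kb away. Trps1, a GATA-type repressor, also had 2, with H3K9ac scores between 75.8 and 140.9 but POLR2 islands in no library. POLR2S5 and POLR2S2 islands reached both Trps1 regions in the 20% O2 round 2 library only. The remaining regions had as nearest gene ends those of Enc1, Ywhaz, Plcb4, Gtdc1, Eif3h, Cpeb2, Msi2, Immp2l, 1700025G04Rik and Mkln1. Of these, Ywhaz encodes a 14-3-3 adaptor, Plcb4 a phospholipase C, and Cpeb2 and Msi2 RNA-binding regulators of translation. The region listed under Enc1 covers the start of Lncenc1 shown above, and that listed under Mkln1 the start of the long noncoding RNA gene Lncpint.

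Beyond Myc (chr15:61985341-61990361) the regions formed a long series. In the 1 Mb past the end of higher coordinate there were 30 cohesin regions without CTCF and 8 with CTCF, a stretch chosen after the region above was seen. H3K9ac was called in 4 lists at 14 of the 30 and in none at 7. Of the 8 with CTCF, 5 had it in 4 lists and 3 in none. By the count in 4 lists, the excess of H3K9ac without CTCF was thus not seen in this stretch. Any list had it at 23 of the 30 and 5 of the 8. No polymerase island overlapped 21 of the 30 and 4 of the 8. The widest spanned 2611 bp. The region with the highest mean rank in the stretch, 71.8, lay 912.7 kb beyond Myc and was called in 3 RAD21 lists.

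**Figure D5:**
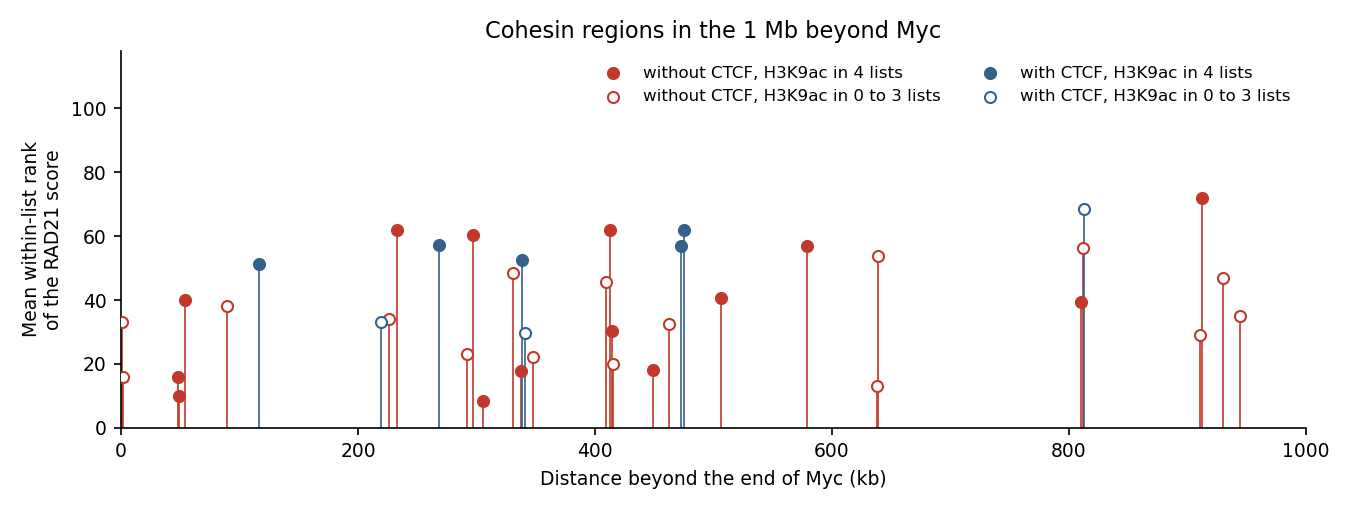
Cohesin regions in the 1 Mb beyond Myc, by distance from the gene's end (kb) and mean within-list rank of the RAD21 score, without CTCF (red, 30) and with CTCF (blue, 8); filled points had an H3K9ac peak in all 4 lists. Filled red points occur from 48.3 kb to 912.7 kb.

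The regions often lay close together. The median gap from a region to the next was 14668 bp, and 43.6% had another within 10 kb. With CTCF, which had more regions, these values were 5964 bp and 60.5%. Chaining regions less than 10 kb apart gave 49 clusters of 5 or more, with 278 regions. The largest held 10 regions in 36.1 kb of Unc5b, a netrin receptor gene, of which 8 had H3K9ac in 4 lists. Clusters of 8 lay at Zeb2, a zinc-finger repressor of neural crest and neuronal development, and at Irf2bp2 and Irf2bpl, transcriptional cofactor genes. Zeb2 carried its 8 regions in 9.02 kb, all with H3K9ac in 4 lists, beside 1 region with CTCF. Clusters of 7 lay at Irs2, an insulin receptor substrate gene, at Tle3, a Groucho corepressor gene, 18.5 kb from the imprinted gene Dlk1, and at the zinc-finger gene Zfp608.

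Single genes that held most regions between their ends were long. Zfhx3, a homeodomain transcription factor gene of 682.3 kb (chr8:108279311-108961636), and Fhit, a fragile-site gene of 1612 kb (chr14:9550092-11162061), held 18 each. At Zfhx3, 14 of 18 had H3K9ac in 4 lists and 13 had POLR2S5 in at least 3 libraries. At Fhit these counts were 6 and 4. Alk, the receptor tyrosine kinase gene mutated in neuroblastoma, Frmd4a, Rad51b and Rbms3 held 15 each. All 15 in Frmd4a had H3K9ac in 4 lists, but only 4 of 15 in Rad51b, a gene of DNA repair, did, and no region in Rad51b had POLR2S5 in at least 3 libraries. Per 100 kb of gene the counts ran from 1.12 in Fhit to 2.72 in Rad51b. Regions with CTCF numbered 8 in Fhit, 12 in Zfhx3, 10 in Alk, 16 in Frmd4a, 15 in Rad51b and 24 in Rbms3.

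By chromosome, 15.1% of all cohesin regions lacked CTCF. The X chromosome had 28 of 777 (3.6%, 95% Wilson interval 2.5% to 5.16%, counting error only), and chromosomes 13 and 12 had 20.2% and 19.5%. Chromosome 7 was lowest among the autosomes, at 11.3%.

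Regions at gene ends were counted by gene group, without a test between groups. Of all 21883 protein-coding genes, 937 (4.28%) had one within 1 kb of an end, and of the 11209 genes with H3K9ac at an end in 4 lists, 919 (8.20%). Cohesin with CTCF was at an end of 22.3% and 37.8% of these genes. The lists were assembled with earlier results of these data known, and their counts are a description. Immediate early genes, which respond within minutes to growth factors and activity, had one at 9 of 25: Jun, Jund, Egr1, Arc, Nr4a3, Ier3, Ier5, Klf4 and Myc. H3K9ac was called at an end of 22 of those 25 in each library. Identity genes of neuroblastoma had one at 8 of 36, among them Phox2a, Gata2, Sox4, Hey1, Pbx3, Ret and, again, Myc. Neuronal and synaptic genes had one at 7 of 28, including Syn2, Snap25, Gap43 and Ncam1. Cytosolic ribosomal protein genes had 3 of 79, although an H3K9ac peak lay at 78 or 79 of them in each library. Genes of cohesin and CTCF had 0 of 23 and those of nitric oxide signalling 0 of 17, clustered protocadherins 0 of 18, polymerase and elongation factors 1 of 42 and the unfolded protein response 1 of 23. H3K9ac was called at an end of 11 of 12 sympathetic neuroblast markers in every library and at 0 or 1 of 8 endothelial, 2 of 8 macrophage, 1 or 2 of 8 fibroblast, 2 or 3 of 6 astrocyte and 2 to 4 of 8 oligodendrocyte and Schwann cell markers.

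The regions at these named genes were mostly weak and acetylated. Rules for the immediate early, identity and hypoxia lists named 28 regions at 19 genes, of which 18 were called in 2 RAD21 lists and 10 in 3 or 4. H3K9ac was called in 4 lists at 22 and POLR2S5 in 4 libraries at 26 and in at least 3 at 27. All 28 lay at gene ends. Of all 963 regions without CTCF at gene ends, 85.7% had H3K9ac in 4 lists and 91.8% had POLR2S5 in at least 3 libraries. The named regions are thus not set apart by these marks. Upstream of Phox2a, a master regulator of sympathetic neurons, the region chr7:101817528-101818358 scored 5.28 and 6.32 at 4% O2 and 5.38 and 3.19 at 20% O2. Its ranks within the lists were 11.6 and 31.0 against 6.72 and 3.87 and did not overlap. The share of all regions for which this held was not counted. Median ranks of all regions without CTCF in the same lists were 17.0 and 34.8 against 8.02 and 34.7. No O2 difference is read from this region, and the ranks are a description only, since RAD21 calls chose the regions. Sox4, an SRY-related factor of neural progenitors, had 3 regions at its ends. The one over its start (chr13:28953089-28953819) scored 10.7, 9.65, 5.29 and 15.5. The stronger of 2 regions at Ier5 (chr1:155098994-155099806) scored 11, 25.6 and 14.3 in the 3 lists that called it, all but the 20% O2 round 1 list. The weaker one was called in the round 2 lists only, at 3.24 for 4% and 6.79 for 20% O2. Jun, a subunit of AP-1, and the region beyond Myc (chr15:61991021-61991273) had no H3K9ac peak but all 3 polymerase forms in all 4 libraries. Ret, a receptor tyrosine kinase of sympathetic neurons, scored 3.72 and 6.75 at 4% O2 and 19.0 in the 20% O2 round 2 list.

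Of 44 hypoxia and glycolysis genes, 3 had a region at an end. Ddit4, a hypoxia-induced inhibitor of mTORC1, had 4 regions, none of them in the 20% O2 round 1 list. The region over its start (chr10:59951472-59952105) scored 5.86 and 8.22 at 4% O2 and 8.77 in the 20% O2 round 2 list. Another region, chr10:59952557-59952876, was called in both 4% O2 lists only, at 5.80 and 9.25. Egln1, the oxygen-sensing prolyl hydroxylase that marks HIF for degradation, had 1 region at 4.28 and 2.66 in the round 2 lists. Tpi1, a glycolytic enzyme gene, had 1 at 6.85 and 6.30 in the same lists. Within 100 kb of Ddit4 there were 13 regions, 12 of them with H3K9ac in 4 lists, beside 23 with CTCF.

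Few regions were called at 1 O2 level only. RAD21 was called in both 4% O2 lists and neither 20% O2 list at 408 of the 7178 regions (5.68%), and in both 20% O2 lists only at 21 (0.293%). Over all 47670 cohesin regions the shares were 2.02% and 2.07%, and nothing is read from the contrast, since the same peaks chose the members. The 20% O2 round 1 list called 2.38% of the regions in all. The 10 strongest of the 408 by rank included regions with Bfsp2, Nek7, Snx18, Mgll, Chst11, Foxl1, Tenm3, Vat1l and Babam2 as nearest genes, and 8 of the 10 had H3K9ac in all 4 lists. The region at Bfsp2, an eye lens filament gene, scored 32.5 and 11 and had no H3K9ac or polymerase at all. Among the 21, the strongest 10 included regions with Gpd2, Msc, Elavl2, Ins2, Sfswap, Sox4, Serpine2 and Tln2 as nearest genes, the last with 2 regions. Of the 10, 6 had H3K9ac in all 4 lists.

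H3K9ac at the regions did not differ between O2 levels beyond the spread of the libraries. The overlap share averaged 77.7% ± 3.19 (SD, n = 2) at 4% and 77.7% ± 1.64 at 20% O2 (exact permutation test, two-sided, p = 1.0; the smallest possible with 2 against 2 is 0.333). At the 5392 regions over an H3K9ac region called in all 4 lists, the median rank was 68.7 and 66.4 at 4% and 68.1 and 66.1 at 20% O2. The rounds differed more than the O2 levels. The median change per region, 4% minus 20%, was 0.37 percentile points, 0.99 in round 1 and -0.59 in round 2 (exact permutation p = 0.667). Ranks were higher at 4% O2 in both rounds at 1520 regions (28.2%) and lower in both at 1487 (27.6%). Over all 39931 H3K9ac regions of that kind the shares were 27.4% and 27.4%. An H3K9ac peak in both 4% O2 lists and in no 20% O2 list was found at 46 of 6488 H3K9ac regions that held such cohesin (0.709%), and the reverse at 49 (0.755%). The shares of all 104182 merged H3K9ac regions were 1.65% and 1.03%.

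No polymerase share at the regions passed the exact test between O2 levels, which cannot go below 0.333, and the differences moved with the 20% O2 round 1 library. POLR2 overlapped 54.8% ± 0.956 (SD, n = 2) at 4% and 41.5% ± 31.7 at 20% O2 (exact permutation p = 1.0). The difference was 35.0 percentage points within round 1, -8.47 within round 2 and -9.15 without the 20% O2 round 1 library. POLR2S5 overlapped 61.1% ± 0.808 and 49.3% ± 23.0 (exact permutation p = 1.0), with differences of 28.5 points within round 1, -5.07 within round 2 and -4.50 without that library. POLR2S2 overlapped 39.9% ± 3.90 and 24.8% ± 16.8 (exact permutation p = 0.333), and both 4% libraries lay above both 20% libraries, the nearest pair at 37.1% and 36.7%. Its difference of 15.1 points was 24.2 within round 1, 5.98 within round 2, 3.22 without the 20% O2 round 1 library and 27.0 without that of round 2. The 20% O2 round 1 library held the fewest reads in islands for each form, for POLR2 2057835 against 5933802 to 10173255 in the others. Adjusted over the 4 marks, each of these p-values was 1.0.

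Tested with edgeR on all 4 libraries without a replicate block, reads in islands gave no polymerase region with a change that passed. Merged islands called in all 4 libraries numbered 7811 for POLR2, of which 1172 held a cohesin region without CTCF. For POLR2S5 they numbered 9933 and 1741, and for POLR2S2 5936 and 978. With edgeR's quasi-likelihood test and Benjamini-Hochberg adjustment, 0 of the 1172, 0 of the 1741 and 0 of the 978 passed an adjusted p of 0.05. Over all regions tested the share was 0% for POLR2, 0% for POLR2S5 and 0% for POLR2S2. At an unadjusted p under 0.05 there were 26, 49 and 50 such regions, of 174, 288 and 349 among all regions tested. DESeq2 called 1, 3 and 18, of 1, 22 and 60 among all. With the sequencing round as a replicate block, edgeR called 1, 0 and 5, of 2, 3 and 11 among all. The median log2 fold change of the regions with such cohesin, 4% over 20% O2, was 0.09, 0.04 and 0.06, against -0.03, -0.01 and -0.004 over all regions tested. Without the 20% O2 round 2 library, 77 of the POLR2 regions (6.57%) and 19 of the POLR2S5 regions (1.09%) passed, against 195 (2.5%) and 50 (0.503%) of all regions tested. That fit left 1 library at 20% O2, which was assumed to vary like the 4% O2 libraries.

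Values are given for the regions with the smallest p in each direction in the edgeR fit of all 4 libraries without a replicate block, where none passed. At Slc2a1, the glucose transporter gene induced by hypoxia, POLR2S5 islands (chr4:119100801-119142000) held 1245 and 2551 reads at 4% and 176 and 515 at 20% O2. Both 4% libraries exceeded both 20% libraries, with a log2 fold change of 2.22 ± 0.44 (SE; edgeR adjusted p = 0.999). At 1700025G04Rik, nearest gene of one of the 20 regions above, POLR2S2 islands with 6 cohesin regions (chr1:151959201-152092800) held 3129 and 6198 reads against 296 and 321. The log2 fold change was 2.89 ± 0.40 (SE; edgeR adjusted p = 0.521). Gng2, a G protein subunit gene, had 994 and 1364 POLR2S2 reads against 47 and 104. The other values above those at 20% O2 were at Ralgps1 with Angptl2, Cdh22 and Ttll1 in POLR2S2, at Sdc3, Fnip2, Prkar1b and Dtnbp1 in POLR2S5, and at Macrod1 with Flrt1, Sdc3, Sulf2 with Ncoa3, Fnbp1 with Gpr107, and Xkr6 in POLR2. Lower values at 4% O2 were seen for Snd1, a transcription coactivator gene, with 1305 and 1791 POLR2S2 reads against 2034 and 5437. The 2 levels did not overlap there, and the log2 fold change was -2.04 ± 0.29 (SE; edgeR adjusted p = 0.521). By the sign of the log2 fold change, which is normalized for the reads of each library, Fam78b, Sipa1l2, Clic4 and Ergic1 followed in POLR2S2. In POLR2S5 these were Drosha with 6030458C11Rik, Map3k4 with Agpat4, Tanc1 with Wdsub1, Sobp and Clic4. In POLR2 they were Ddr2 with Hsd17b7, Wwc1 with Rars, Actn1, Bmper and Auts2. Raw reads of the 2 levels overlapped at some of these. Ergic1 had 2180 and 3363 POLR2S2 reads at 4% against 2048 and 3613 at 20% O2. Bmper had 106 and 180 POLR2 reads against 84 and 336. The islands over Tanc1 held 7 cohesin regions without CTCF, with 3500 and 4605 POLR2S5 reads at 4% against 4947 and 8341 at 20% O2.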

How the data were processed

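Peak lists of 24 immunoprecipitated libraries were analysed, and 6 input samples were not analysed here. The members and gene lists were chosen with earlier results of these data known. Reads were aligned to mm10; the tools BWA, Picard, SICER and MACS2 come per the submitters' processing notes, without version or setting. MACS2 lists of CTCF, RAD21 and H3K9ac carry −log10 q-values and SICER lists of the polymerase forms carry read counts per island, as deposited by the authors and judged from the values. Scores are printed as deposited, and lists were set beside each other by rank within each list. No total depth per library was at hand, so reads in islands stand in for it. Replicate 2 lists appear in 2 forms with equal scores and were counted once. Replicates 1 and 2 were sequenced on different flow cells per the file headers and are called rounds 1 and 2. In round 1 the CTCF libraries were on another flow cell than those of the other antibodies, and in round 2 all shared a single flow cell. One code in the header of a CTCF list (20% O2, round 1) has no explanation in the labels.

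Intervals on chromosomes 1 to 19, X and Y were merged at an overlap of 1 bp or more. Genes (21883 protein-coding), start sites and promoter sequences came from RefSeq tables of GRCm38.p6, the build mm10; a region counted as at a gene end where its centre lay within 1 kb. Shares were compared over libraries with exact permutation tests (2 against 2) or exact sign-flip tests (4 libraries), with scipy 1.17.1. Island reads were summed over merged regions called in all 4 libraries and tested with edgeR 4.0.16 (TMM, filterByExpr, Benjamini-Hochberg) in R 4.3.3, with DESeq2 1.42.0 as an alternative; the standard error is the fold change over the root of F. The code was tested on simulated data. Named were the 20 strongest regions in 4 RAD21 lists, listed genes with a region at an end, the 10 strongest regions called at 1 O2 level only, the 5 polymerase regions with the smallest p per direction, and the genes with most regions; other names were picked after their values were seen. Some items that these rules name are not reported here.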

Additional observations from a re-analysis of the deposited data

How the results depend on the processing

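Across 14 results, 240 recomputations under other choices were made, of which 209 were counted as unchanged. For a difference this meant the same direction, and for counts and the share at gene ends a value near that reported. The H3K9ac share difference between O2 levels was 0, so there it meant a size within its SD of 2.54, whatever the sign. Leaving out single H3K9ac libraries, that difference ran from -2.26 to 2.26. Differences could still change in size. The H3K9ac difference between regions without and with CTCF stayed above 0 in all 24 alternatives tried (18.4 to 48.5 percentage points), as did those of POLR2 (10.8 to 20.8) and POLR2S5 (9.42 to 19.5). That of POLR2S2 (1.33) was -1.59 with no CTCF within 1 kb, -0.824 within round 1 (replicate block), and, leaving out single libraries or lists, between -0.477 and 3.69. The subsets by round 2 pattern, width under 500 bp and place outside genes were added after the data were seen. The number of regions was 1986 with RAD21 in at least 3 lists, 4388 at a RAD21 −log10 q of 5, 4697 with no CTCF within 1 kb, and 2544 to 8210 leaving out single lists (2981 without the 4% O2 round 2 list and 2544 without the 20% O2 round 2 list). The share at gene ends was 11.5% with RAD21 in 3 lists, 11.6% with no CTCF within 1 kb, 20.3% with 2.5 kb windows, 14.9% at start sites, and 10.6% to 14.5% leaving out single lists. The O2 difference of POLR2 (13.3 points) was -8.47 within round 2 (replicate block) and ranged from -9.15 to 35.7 leaving out single libraries or lists, lowest without the 20% O2 round 1 library; that of POLR2S5 (11.7) was -5.07 and ranged from -4.5 to 28, lowest without the same library. The H3K9ac rank difference (0.37) was -0.13 with RAD21 in 3 lists, -0.59 within round 2 (replicate block) and -0.34 to 1.64 leaving out single libraries or lists; the cause was not tested. Polymerase regions called were 1, 3 and 18 with DESeq2 (of all tested 1, 22 and 60) and 1, 0 and 5 with the replicate block (2, 3 and 11), for POLR2, POLR2S5 and POLR2S2, and 0 to 77, 0 to 19 and 0 leaving out single libraries. With 2 libraries per level no permutation test can pass 0.05, and only 171 regions with a peak in the 20% O2 round 1 list limit any statement on O2.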

Other observations

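Within 100 kb of the listed genes, regions without CTCF outnumbered those with CTCF at a few developmental regulators. Klf7, a Krüppel-like factor of neurons, had 12 without and 5 with CTCF, of which 10 without CTCF had H3K9ac in 4 lists. Meis1, a homeodomain cofactor, had 10 and 6, and Sox11, an SRY-related factor of neural progenitors, 9 and 2. Myc had 9 and 2, and Mycn 6 and 3. Around Nos1, the gene the cells are described as positive for, there were 4 and 14, and around Vegfa, the hypoxia-induced growth factor gene, 5 and 17. Glycolytic genes varied: Tpi1 and Hk1 had 4 each, Aldoa and Eno1 2 each, Hk2 1, and Ldha, Pkm and Gapdh 0. These genes were picked after their values were seen, and their differences were not tested.

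Polymerase was also counted among H3K9ac regions called in all 4 lists and away from gene ends. POLR2S5 was present in at least 3 libraries at 56.3% of the 3926 with such cohesin, at 59.6% of the 8075 with CTCF-bearing cohesin only and at 54.3% of the 11820 with neither. By the same count POLR2S2 was present at 23.0%, 27.1% and 25.7%, and POLR2 at 46.9%, 54.1% and 47.4%. At gene ends POLR2 was present at 90.4% of the 1265 with such cohesin, 92.0% of the 5023 with CTCF-bearing cohesin only and 94.8% of the 9822 with neither. POLR2S5 was present there at 94.7%, 95.0% and 96.7%, and POLR2S2 at 74.2%, 73.8% and 75.9%. H3K9ac regions with both kinds of cohesin were counted as with such cohesin. No test was made of these shares.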
